A study of Mus musculus with 2 samples.

Results

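The 7 globin genes *Hba-x*, *Hba-a1*, *Hba-a2*, *Hbb-y*, *Hbb-bh1*, *Hbb-bs* and *Hbb-bt* were followed through single cells of the developing mouse eye region. They were taken by name from the 27998 genes of the count matrices, and all 7 were found in both matrices. The cells came from the ocular area of C57BL/6J embryos at the 26-somite stage (E9.25), from 1 wild-type (WT) embryo and 1 *Mab21l1*-null (KO) embryo, each giving a single 10x Chromium library after its pair of eye areas was dissociated with trypsin. A unique molecular identifier (UMI) is counted once for each 3′ end that a droplet captures, whatever the length of the transcript, and the droplet's barcode stands for the cell. Both embryos carry the same strain label, and the labels name no other allele or agent. The question put to the globins was how each was used in red blood cells, and how much globin RNA was counted in every other cell class, in the KO-labelled library against the WT-labelled library.

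Each genotype is a single embryo, so that nothing here could be checked against replicates and no test was run. Brackets give exact 95% intervals, Poisson for UMI sums and their levels, binomial (Clopper-Pearson) for shares, and the exact conditional interval for ratios of levels. All cover counting error only. The libraries held 43636657 and 53148253 UMIs over 1745 and 2458 barcodes, in the order WT then KO, of which 1680 and 2404 passed the limits of 1500 to 8000 genes and 5% mitochondrial UMIs. The libraries shared 15 barcode sequences, none of them in an erythrocyte-like cell. *Mab21l1*, the targeted gene, was counted at 886 UMIs in the WT-labelled library and 1718 in the KO-labelled library, or 20.3 and 32.3 counts per 1000000 UMIs (CPM), which goes against the label, so each library is called by its label throughout. By class the direction differed. The study itself lists *Mab21l1* as lower in null ectoderm cells and found no MAB21L1 protein signal in the null lens. In ectoderm-like cells *Mab21l1* was lower in the KO-labelled library, at 36 UMIs (37.8 CPM [26.5, 52.4]) against 99 (86.8 CPM [70.6, 106]), and in optic vesicle-like cells it was higher, at 1316 UMIs (61.5 CPM [58.2, 64.9]) against 566 (35.9 CPM [33.0, 39.0]). Which part of the gene the null allele lacks is not given in the sources used here, so that 3′ counts may not check the deletion.

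Haemoglobin is made of alpha-like and beta-like chains that carry haem and oxygen. The first red cells of the mouse embryo are primitive erythrocytes from the yolk sac, which use the embryonic chains zeta (*Hba-x*), epsilon-y (*Hbb-y*) and beta-h1 (*Hbb-bh1*) together with the alpha chains of *Hba-a1* and *Hba-a2*. Later definitive red cells use *Hba-a1* and *Hba-a2* with the adult beta chains of *Hbb-bs* and *Hbb-bt*. In droplet experiments, abundant RNA that is free in the cell suspension is captured in the droplets of cells that do not express it, and globin RNA is a common case.

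The alpha-like genes lie on the plus strand of chromosome 11 of GRCm38, *Hba-x* from 32276400 to 32278116, *Hba-a1* from 32283511 to 32284465 and *Hba-a2* from 32296489 to 32297298. The beta-like genes lie on the minus strand of chromosome 7, *Hbb-bt* from 103812524 to 103813996, *Hbb-bs* from 103826534 to 103828096, *Hbb-bh1* from 103841637 to 103843164 and *Hbb-y* from 103851749 to 103853216. The main GENCODE transcript of each has 3 exons. Reads of 90 bases from *Hba-x*, *Hbb-y* and *Hbb-bh1* would be unique to their gene. Of the 90-base windows in the last 400 bases of the transcript, which 3′ counting reads, only 28.9% were unique to *Hba-a1* and 34.1% to *Hba-a2*, with the rest shared between these 2 genes. For *Hbb-bs* and *Hbb-bt*, 51.1% and 51.5% were unique, with the rest again shared within the pair. Levels of these 4 genes, and the split within each pair, therefore depend on how reads that match both copies were handled, and are uncertain.

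RefSeq promoter windows (GRCm38.p6) were matched for 6 of the 7 genes. The 130 bases before the RefSeq start, read on the gene strand, are shown for a gene of each kind, an adult alpha, an embryonic beta and an adult beta gene, with 5 motifs in capitals where they were found on either strand. These were CACCC, the core of sites bound by KLF1, then CCAAT, the letters of the CCAAT box, then TATAAA, those of the TATA box, and lastly GATAA or, as the other form of sites bound by GATA1, GATAG. The windows lie at chr11:32296362-32296491 for *Hba-a2*, chr7:103853208-103853337 for *Hbb-y* and chr7:103827929-103828058 for *Hbb-bs*.
Hba-a2: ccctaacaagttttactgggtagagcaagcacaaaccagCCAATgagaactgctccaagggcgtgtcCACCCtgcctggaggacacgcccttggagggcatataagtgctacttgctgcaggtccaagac
Hbb-y: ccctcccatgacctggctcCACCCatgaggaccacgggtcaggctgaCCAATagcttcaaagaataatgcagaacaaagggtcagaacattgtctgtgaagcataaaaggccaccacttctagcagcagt
Hbb-bs: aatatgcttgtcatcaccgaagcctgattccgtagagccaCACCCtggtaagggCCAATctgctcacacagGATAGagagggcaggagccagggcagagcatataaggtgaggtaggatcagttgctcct

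CACCC was found in the window of all 6 genes, starting 60 to 111 bases before the start, and in 33.7% of 32851 RefSeq promoter windows of the same length. CCAAT was found in the windows of all but *Hba-x*, against 22.4% of all windows. TATAAA was found 28 bases before the start of *Hba-x* and of *Hbb-bt*, and in 6.83% of all windows. GATAA was found only in the *Hba-x* window and GATAG only in that of *Hbb-bs*, and they stood in 11.4% and 10.5% of all windows. The window of *Hba-a1* repeats that of *Hba-a2* over 127 bases, while *Hbb-bs* and *Hbb-bt* share no run longer than 14 bases. These matches are letters in a window and no measure of binding. The windows of *Hba-x*, *Hba-a1* and, in part, *Hbb-bt* lie in the first exon of a longer GENCODE transcript and are described by their motifs only. Of the windows printed, that of *Hbb-bs* overlaps the exons of a further transcript (Hbb-bs-203) by 47 of its 130 bases, that of *Hbb-y* its main transcript by 9 and that of *Hba-a2* by 3.

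Erythrocyte-like cells formed 1 cluster in which all 8 erythrocyte markers that are not globins stood 2-fold or more above the other cells, among them *Alas2*, the first enzyme of haem synthesis in red cells. The globins took no part in the clustering. The cluster held 38 cells of the WT-labelled library, 2.26% [1.61, 3.09] of its cells, and 52 of the KO-labelled library, 2.16% [1.62, 2.83], with medians of 34643 and 33622 UMIs per cell. Each cell had at least 5 of the 8 markers. Endothelial *Pecam1*, *Tie1* and *Esam*, macrophage *C1qb*, *Aif1* and *Ctss* and platelet *Pf4*, *Ppbp* and *Gp1bb* had no UMI in these cells. Other markers of these lists did. Platelet *Itga2b* had 16 and 24 UMIs, or 11.7 and 12.6 CPM against 0.602 and 0.735 in the other classes. *Gp9* and *Itgb3* were also higher than in the other classes. The summed level of 7 endothelial markers was 28.5 CPM in the WT-labelled library and 38.9 CPM in the KO-labelled library. It was 2.19 and 2.625 CPM for 7 macrophage markers and 19.7 and 23.1 CPM for 6 platelet markers, against 2743 and 2766 CPM for the 8 erythrocyte markers. Markers of eye tissues were counted too. Those of the lens placode summed to 62.8 and 47.3 CPM, with up to 37 and 35 UMIs in a cell. Optic vesicle markers summed to 21.2 and 24.2 CPM, with up to 18 and 20 UMIs, and mesenchyme markers to 7.30 and 21.0 CPM. The median cell had at most 1 UMI of each of these lists. Whether some of these barcodes hold more than 1 cell was not tested. *Kit*, the receptor of early progenitors, had no UMI in the cells of either library, and *Gata2* had 0 and 1.

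The 7 globin genes took 32.9% [32.8, 33.0] of the UMIs in the WT-labelled library and 34.1% [34.1, 34.2] in the KO-labelled library. Single cells ranged from 8.17% to 43.0% around a median of 32.0% in the WT-labelled library, and from 18.9% to 55.0% around a median of 34.0% in the KO-labelled library. The ranges of the libraries overlap over most of their length. The cell at 8.17% had 5859 genes, the most among the erythrocyte-like cells of its library, and the lowest *Hba-x* share of alpha-like UMIs, 34.8%. *Hbb-y* was the highest member in both libraries, followed by *Hba-x*, *Hbb-bh1*, *Hba-a1* and *Hba-a2*, and *Hbb-bt* and *Hbb-bs* came last, each under 2% of the *Hbb-y* level (UMI sums, not scaled by length).

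**Figure D1:**
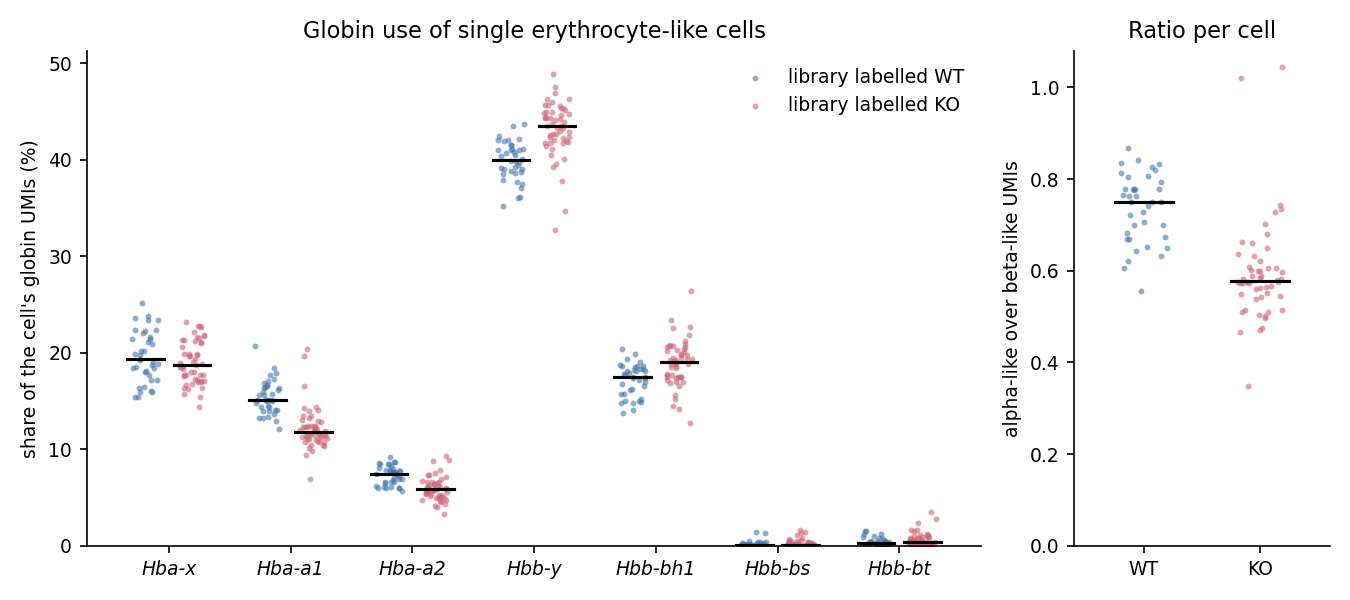
Left, the share of each globin gene in the globin UMIs of a cell, in percent, for each of the 38 and 52 erythrocyte-like cells. Right, the alpha-like over beta-like UMIs of each cell. Points are cells, bars are medians. *Hba-a1* and *Hba-a2* sit lower and *Hbb-y* and *Hbb-bh1* higher in the KO-labelled library, and the ratio has medians of 0.750 and 0.578.

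Among the alpha-like genes, the embryonic *Hba-x* had 90939 UMIs in the WT-labelled library, or 66379 CPM, and 125445 in the KO-labelled library, or 65868 CPM, a ratio of KO over WT of 0.992 [0.984, 1.001]. A cell of the WT-labelled library held 265 to 7445 *Hba-x* UMIs with a median of 1918, and a cell of the KO-labelled library 512 to 6180 with a median of 2064. The level of *Hba-x* thus lay within counting error between the libraries. *Hba-a1* had 67558 UMIs (49313 CPM) against 77874 (40890 CPM), a ratio of 0.829 [0.821, 0.838]. Its UMIs per cell ran from 167 to 4637 with a median of 1602 in the WT-labelled library, and from 325 to 3603 with a median of 1374 in the KO-labelled library. *Hba-a2* had 32119 UMIs (23445 CPM) against 37895 (19898 CPM), a ratio of 0.849 [0.836, 0.861]. Both alpha genes that persist into adult life were thus lower in the KO-labelled library. Their UMIs per cell overlap widely between the libraries, but these ranges are not scaled by depth.

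*Hba-x* consequently made up 47.7% [47.5, 47.9] of the alpha-like UMIs in the WT-labelled library and 52.0% [51.8, 52.2] in the KO-labelled library. The share ran over single cells from 34.8% to 58.2% with a median of 46.5% in the WT-labelled library, and from 38.3% to 63.3% with a median of 51.5% in the KO-labelled library. The cells of the libraries overlap, with 45 of the 52 cells labelled KO above the median of the cells labelled WT. The spread of this share between cells was 5.79 and 6.00 times what counting alone would give. *Hba-a1* made up 67.8% [67.5, 68.1] and 67.3% [67.0, 67.5] of the UMIs of the *Hba-a1* and *Hba-a2* pair, with medians over cells of 68.1% and 67.7%. Cell by cell this split lay closest to counting error among the shares examined, with a spread 1.44 and 2.38 times that of counting, between 64.2% and 71.4% in the WT-labelled library and between 61.8% and 73.4% in the KO-labelled library, and the 2 genes went together across cells, with a Pearson r of CPM of 0.95 over 38 cells and 0.905 over 52 cells. The reads they share bear on both values.

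Among the beta-like genes, *Hbb-y* had 180902 UMIs (132046 CPM) in the WT-labelled library and 281561 (147841 CPM) in the KO-labelled library, a ratio of 1.12 [1.11, 1.13]. A cell held 459 to 12868 *Hbb-y* UMIs with a median of 3875 in the WT-labelled library, and 833 to 11490 with a median of 4942 in the KO-labelled library. *Hbb-bh1* had 76321 UMIs (55709 CPM) against 121090 (63581 CPM), a ratio of 1.14 [1.13, 1.15]. Its UMIs per cell ran from 211 to 5755 with a median of 1680 in the WT-labelled library, and from 339 to 5531 with a median of 2142 in the KO-labelled library. For both genes these ranges, which are not scaled by depth, overlap almost wholly. As a share of the cell's globin UMIs, *Hbb-y* had medians of 39.97% in the WT-labelled library and 43.5% in the KO-labelled library. Of the 52 cells labelled KO, 47 lay above the median of the cells labelled WT. In this share 25 of them lay above every cell labelled WT and 2 below every one.

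The balance of these embryonic beta chains was alike in the libraries. *Hbb-y* took 69.7% [69.5, 69.8] of the beta-like UMIs in the WT-labelled library and 68.8% [68.7, 69.0] in the KO-labelled library, and *Hbb-bh1* took 29.4% [29.2, 29.6] and 29.6% [29.5, 29.7]. The *Hbb-bh1* share of single cells ran from 25.2% to 33.9% with a median of 29.98% in the WT-labelled library, and from 21.7% to 36.2% with a median of 30.4% in the KO-labelled library. The cell at 21.7% had 6298 genes, the most among the erythrocyte-like cells, and also the highest *Hbb-bs* share, 2.68%. Cells with more UMIs had a lower *Hbb-bh1* share, with a Spearman rho of -0.344 over 38 cells and -0.536 over 52 cells, where both measures come from the same UMIs. The *Hba-x* share and the *Hbb-bh1* share, both embryonic chains, did not go together across cells, with a rho of -0.140 and 0.0976.

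The ratio of alpha-like to beta-like UMIs was 0.734 [0.730, 0.738] in the WT-labelled library and 0.590 [0.587, 0.592] in the KO-labelled library. Over single cells it ran from 0.556 to 0.868 with a median of 0.750 in the WT-labelled library, and from 0.348 to 1.05 with a median of 0.578 in the KO-labelled library. Of the 38 cells labelled WT, 37 lay above the median of the cells labelled KO, and 50 of the 52 cells labelled KO lay below the median of the cells labelled WT. The 2 cells of the KO-labelled library above every cell of the other library were exceptions, the higher of them also the cell with the lowest globin share of its library, at 18.9%. The cells of a library share 1 embryo and 1 preparation, so that embryo, preparation and genotype cannot be told apart.

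The adult-type beta genes were a small and uneven part. *Hbb-bs* had 841 UMIs (614 CPM) in the WT-labelled library and 1925 (1011 CPM) in the KO-labelled library, a ratio of 1.65 [1.52, 1.79]. Its UMIs per cell ran from 0 to 156 with a median of 9.5 in the WT-labelled library, where 1 cell had none, and from 0 to 422 with a median of 16 in the KO-labelled library, where 6 cells had none. *Hbb-bt* had 1628 UMIs (1188 CPM) against 4567 (2398 CPM), a ratio of 2.02 [1.91, 2.14]. Its UMIs per cell ran from 1 to 176 with a median of 26.5 in the WT-labelled library and from 2 to 620 with a median of 41.5 in the KO-labelled library. Cells of both libraries overlap from the lowest values up to 176 UMIs, and 7 cells of the KO-labelled library lie above. The ratio of the median levels over cells was 1.42 for *Hbb-bs* and 1.503 for *Hbb-bt*. The 5 cells with the most adult beta UMIs held 39.7% of them in the WT-labelled library and 38.1% in the KO-labelled library. The same cells held 16.1% and 13.9% of the *Hbb-y* UMIs. They were picked by their adult beta UMIs, so that this contrast was in part set by the choice and does not measure unevenness.

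*Hbb-bt* was the only member 2-fold or more apart between the libraries in erythrocyte-like cells, and none was 2-fold or more lower. Of the 5885 genes with at least 20 UMIs in these cells, 1.65% were 2-fold or more higher and 2.43% 2-fold or more lower in the KO-labelled library, and the median ratio over these genes was 0.981. All 7 members had the 20 UMIs.

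Together *Hbb-bs* and *Hbb-bt* took 0.951% [0.914, 0.989] of the beta-like UMIs in the WT-labelled library and 1.59% [1.55, 1.62] in the KO-labelled library. Over cells this share ran from 0.0404% to 3.20% and from 0.0614% to 5.57%. Its split between the 2 genes varied widely from cell to cell. Of the cells with at least 10 adult beta UMIs, 32 in the WT-labelled library and 48 in the KO-labelled library, the *Hbb-bt* part ran from 18.2% to 98.6% with a median of 63.6%, and from 3.17% to 100% with a median of 73.5%. At least 90% of the adult beta UMIs were *Hbb-bt* in 8 and 16 of these cells, and at least 90% were *Hbb-bs* in 0 and 2. The cell with the highest *Hbb-bt* share had 620 *Hbb-bt* and 6 *Hbb-bs* UMIs beside 7479 of *Hbb-y*, while 1 cell labelled WT had 47 *Hbb-bt* and 156 *Hbb-bs* UMIs beside 4156 of *Hbb-y*. Shares of *Hbb-bs* and *Hbb-bt* in the beta-like UMIs were unrelated across cells, with a Spearman rho of 0.0187 over 38 cells and -0.113 over 52 cells. The spread of these shares between cells was 6.11 and 5.72 times that of counting in the WT-labelled library and 7.23 and 8.59 times in the KO-labelled library.

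**Figure D2:**
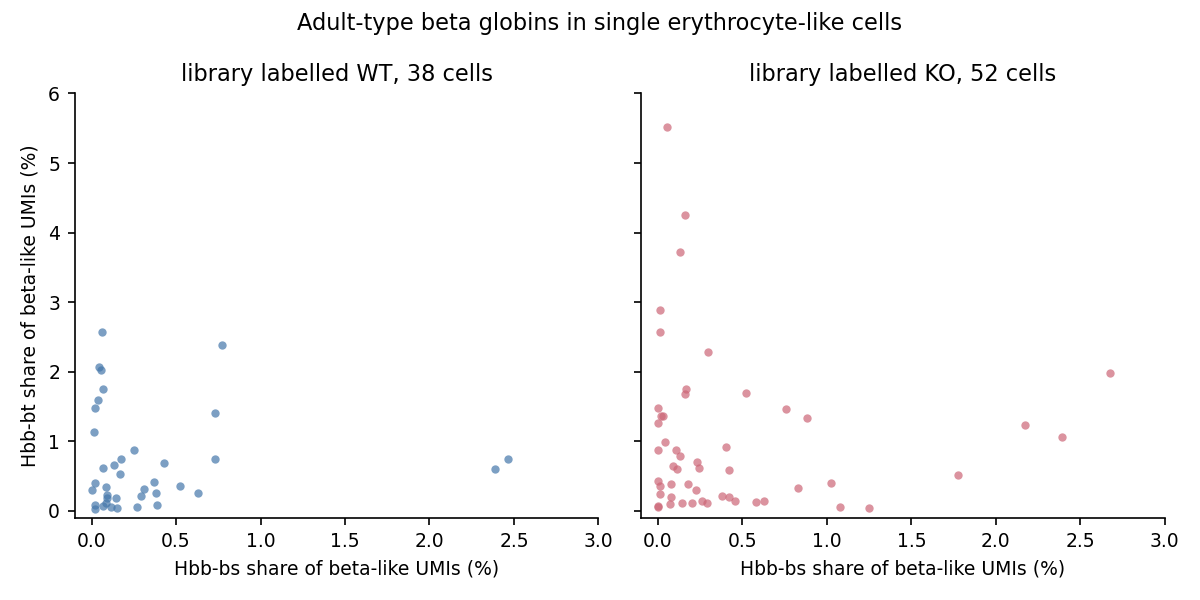
Share of *Hbb-bs* (horizontal axis) and of *Hbb-bt* (vertical axis) in the beta-like UMIs of each erythrocyte-like cell, in percent, by library. Points are cells. The highest *Hbb-bs* shares are 2.46% and 2.68%, and the highest *Hbb-bt* shares are 2.57% in the WT-labelled library and 5.52% in the KO-labelled library.

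The other globin genes of the table were rare in erythrocyte-like cells. They are given as UMIs, out of 1369994 in the class in the WT-labelled library and 1904490 in the KO-labelled library. Equal counts therefore mean a lower level in the KO-labelled library. *Hbq1b*, a theta globin, had 81 and 80 UMIs in them in the order WT then KO, *Hbq1a* 1 and 2, and *Hbb-bh2* 2 and 2. Myoglobin (*Mb*) had 0 and 1 UMI there, neuroglobin (*Ngb*) and cytoglobin (*Cygb*) none. In the other classes *Cygb* had 246 and 417 UMIs, out of 39896257 and 50311184. *Hbb-bh0*, *Hbb-b1* and *Hbb-b2* are not in the gene table.

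Genes that serve haemoglobin were compared in the same cells. Of the 65 genes of 6 erythroid lists with at least 20 UMIs, none was 2-fold or more higher or lower, against 1.65% and 2.43% of all genes tested. At such shares few calls would fall among 65 genes, so that their absence says little about these lists. In haem synthesis, 10 of 11 genes were tested, with a median ratio of KO over WT of 1.04. Its highest gene, *Tmem14c*, a mitochondrial membrane protein needed to make haem, had 1835 UMIs (1339 CPM) in the WT-labelled library and 2853 (1498 CPM) in the KO-labelled library, a ratio of 1.12 [1.05, 1.19], and *Alas2* had 1438 and 2056 UMIs, a ratio of 1.03 [0.961, 1.10]. In iron uptake and storage, 10 of 12 genes were tested, with a median of 0.985 and with ferritin heavy chain (*Fth1*) highest, at 8408 and 9033 CPM. In the red cell membrane and skeleton, 18 of 20 genes were tested, with a median of 0.977.

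Of the erythroid transcription factors, 11 of 18 were tested, with a median ratio of 0.931. Their ratios ran from 0.660 [0.489, 0.889] for *Zfpm1* and 0.679 [0.454, 1.015] for *Gfi1b* up to 1.23 [0.953, 1.59] for *Gata1*. *Klf1*, which activates adult beta globin, had the highest level, at 358 and 513 UMIs or 261 and 269 CPM, a ratio of 1.03 [0.899, 1.18]. *Bcl11a* and *Sox6*, repressors of embryonic globin in definitive cells, and *Myb*, a factor of definitive progenitors, had no UMI in the WT-labelled library and 1, 1 and 2 in the KO-labelled library. Of the redox and globin-handling genes, 9 of 12 were tested, with a median of 0.978, and the peroxiredoxin *Prdx2* was highest, at 2674 and 2808 CPM. Of the progenitor and growth signal genes, 7 of 10 were tested, with a median of 1.03. *Pim1*, a kinase induced by erythropoietin signalling, was the highest of them, at 311 and 224 CPM, a ratio of 0.721 [0.629, 0.827].

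Outside the erythrocyte-like cells, globin UMIs were few per cell but were counted nearly everywhere. Of 1625 other cells of the WT-labelled library, 1566 had at least 1 globin UMI, and of 2345 of the KO-labelled library, 2340 had, with medians of 5 and 8 globin UMIs per cell. In all, 8581 and 23711 globin UMIs lay outside the class, against 450308 and 650357 in it (17 and 7 macrophage-like cells are left out of these sums, as their cluster was too small), so that the erythrocyte-like cells held 98.1% and 96.5% of the globin UMIs of the kept cells. Per 10000 UMIs the other cells carried 2.15 [2.11, 2.197] globin UMIs in the WT-labelled library and 4.71 [4.65, 4.77] in the KO-labelled library, a ratio of 2.19 [2.14, 2.25]. Within the erythrocyte-like cells the same summed level had a ratio of 1.039 [1.035, 1.043].

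The difference was found in each class. In mesenchyme-like cells, the sum of the 7 genes was 2.31 [2.21, 2.41] per 10000 UMIs in the WT-labelled library and 5.04 [4.92, 5.17] in the KO-labelled library. Optic vesicle-like cells had 1.995 [1.93, 2.07] and 4.16 [4.07, 4.25]. Neural ectoderm-like cells had 2.18 [2.08, 2.28] and 4.61 [4.48, 4.75]. Within the KO-labelled library these intervals do not overlap. Within the WT-labelled library the optic vesicle-like interval lies below those of the mesenchyme-like and neural ectoderm-like cells. Neural crest-like cells had 2.51 [2.09, 2.99] and 4.98 [4.41, 5.61], ectoderm-like cells 1.77 [1.54, 2.03] and 4.10 [3.70, 4.52], and the unnamed clusters 2.31 [2.12, 2.50] and 5.11 [4.85, 5.37]. Endothelium-like cells, which line the vessels that hold the red cells, had 2.46 [2.24, 2.69] and 7.92 [7.58, 8.28], the highest level outside the erythrocyte-like cells in the KO-labelled library. This rank rests on 2 cells that held 351 and 458 of the 1979 globin UMIs of that class. Without them its level was 4.88 [4.61, 5.17], below those of the mesenchyme-like cells and the unnamed clusters, but with intervals that overlap. Without their cell over 0.2% globin, the unnamed clusters were at 4.96 [4.71, 5.225]. The endothelium-like level was also below that of the neural crest-like cells, but there a single cell held 50 of 274 globin UMIs. Without that cell the neural crest-like level was 4.16 [3.63, 4.74], below the endothelium-like one, again with overlapping intervals.

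**Figure D3:**
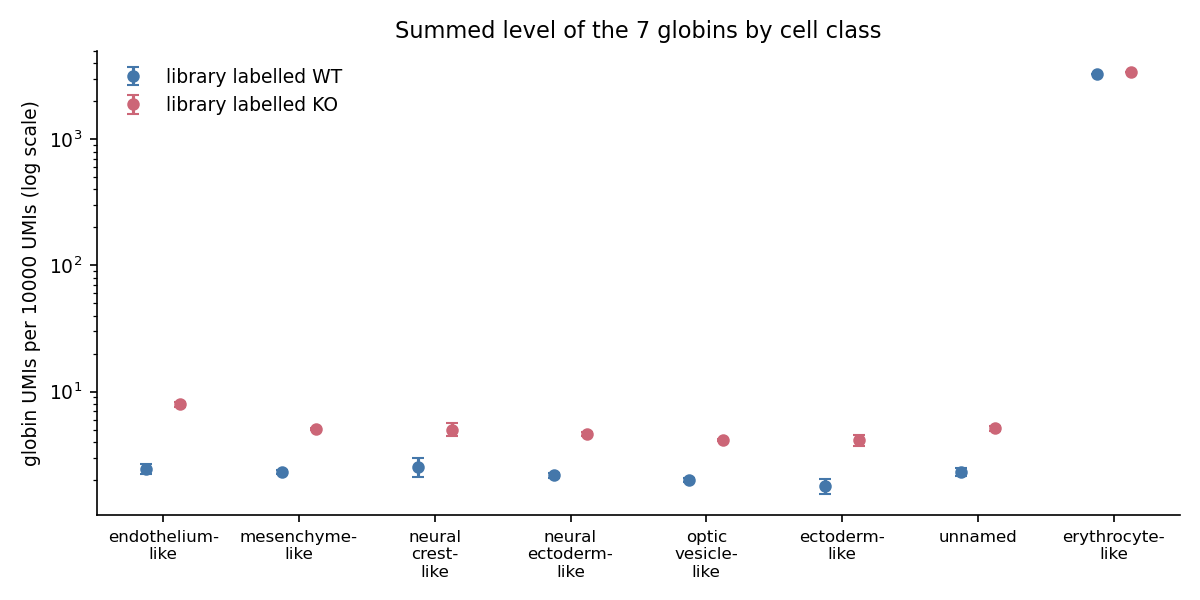
Globin UMIs per 10000 UMIs (log scale) by cell class, for the sum of the 7 genes. Points are the pooled value of a library, bars the exact 95% Poisson interval. All classes outside the erythrocyte-like cells lie between 1.77 and 2.51 in the WT-labelled library and between 4.10 and 7.92 in the KO-labelled library (the latter 4.88 in endothelium-like cells without 2 of them), while the erythrocyte-like cells lie at 3287 and 3415.

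The number of globin UMIs of such a cell followed its depth. Between globin UMIs and total UMIs of a cell, the Spearman rho was 0.687 over 1625 cells and 0.689 over 2345 cells. Cells below the median depth carried 2.27 per 10000 UMIs in the WT-labelled library and the others 2.10, against 4.99 and 4.58 in the KO-labelled library. The mean squared deviation from a constant rate per UMI was 1.22 times the Poisson value in the WT-labelled library and 7.34 times in the KO-labelled library, where it was 1.31 times without the 4 cells of which over 0.2% of the UMIs were globin.

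The composition of the globin UMIs outside the class was almost the same in both libraries and unlike that inside it. *Hbb-y* made up 53.2% [52.1, 54.2] of the globin UMIs outside in the WT-labelled library and 53.2% [52.5, 53.8] in the KO-labelled library, against 40.2% and 43.3% in the erythrocyte-like cells. None of the 38 and 52 erythrocyte-like cells reached this share. It lay above the erythrocyte-like value in all 7 other classes of each library, with the interval of each class above it too, from 52.4% in optic vesicle-like to 56.8% in neural crest-like cells of the WT-labelled library, and from 50.2% in endothelium-like (55.3% without the 2 cells) to 54.9% in ectoderm-like cells of the KO-labelled library. *Hbb-bh1* made up 23.3% [22.3, 24.4] and 24.0% [23.4, 24.7] of the beta-like UMIs outside, less than in 38 of 38 and 51 of 52 erythrocyte-like cells. The alpha-like to beta-like ratio outside was 0.427 [0.408, 0.447] and 0.404 [0.392, 0.415], below all 38 cells of the WT-labelled library and 51 of the 52 of the KO-labelled library.

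Of the 5 abundant members, *Hba-a1* had the lowest share outside relative to inside, at 7.98% [7.42, 8.58] of the globin UMIs in the WT-labelled library and 7.45% [7.12, 7.79] in the KO-labelled library, against 15% and 11.97% inside, with endothelium-like cells of the KO-labelled library, at 15.8%, as the exception among the classes, where it was 6.33% without the 2 cells. The *Hba-x* share of the alpha-like UMIs was 57.1% [55.2, 59.0] and 57.0% [55.9, 58.2] outside, against 47.7% and 52.0% inside. It lay above the inside value in 6 of the 7 classes of each library, with the interval above it in 5 and 3. The exceptions were neural crest-like cells of the WT-labelled library, at 42.4%, and endothelium-like cells of the KO-labelled library, at 41.5% with the 2 cells included. *Hbb-bs* and *Hbb-bt* together took 0.815% [0.604, 1.08] and 1.32% [1.15, 1.504] of the beta-like UMIs outside, and so differed between the libraries in the same direction as inside. The UMIs in the other classes thus did not mirror the mean of the captured erythrocyte-like cells. The source of these UMIs was not tested.

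**Figure D4:**
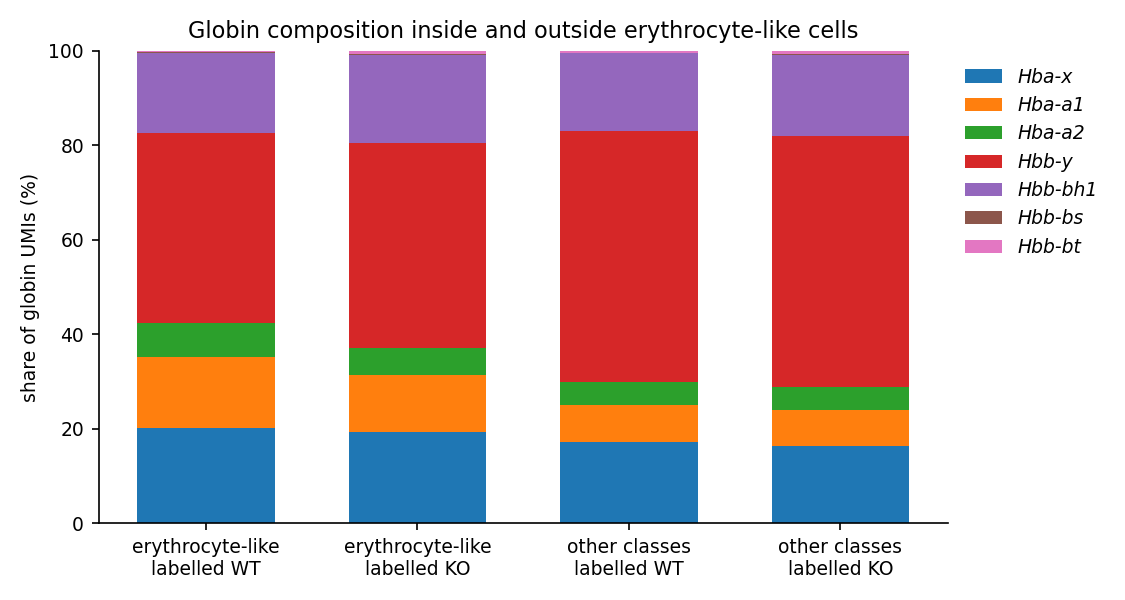
Share of each globin gene in the globin UMIs, in percent, pooled over the erythrocyte-like cells and over all other classes of each library, as stacked bars. *Hbb-y* takes 40.2% and 43.3% inside and 53.2% in both libraries outside.

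Gene by gene, the ratio of KO over WT outside the erythrocyte-like cells was 2.10 [1.98, 2.24] for *Hba-x*, 2.04 [1.87, 2.24] for *Hba-a1*, 2.21 [1.98, 2.48] for *Hba-a2*, 2.19 [2.12, 2.27] for *Hbb-y* and 2.29 [2.16, 2.44] for *Hbb-bh1*. *Hbb-bt* had 43 and 161 UMIs, a ratio of 2.97 [2.11, 4.26], and *Hbb-bs* 6 and 62, a ratio of 8.19 [3.56, 23.2]. All 7 members were thus 2-fold or more higher in the KO-labelled library over these cells together, and 6 were without the 2 endothelium-like cells, with *Hba-a1* then at 1.77 [1.62, 1.94], where 0.829% of 14363 genes with at least 20 UMIs were, and *Hbb-y* stood above 99.4% of these genes. Inside the class, in contrast, *Hba-a1* and *Hba-a2* were lower and *Hba-x* level in the KO-labelled library.

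By class, 5 of the 5 members with at least 20 UMIs were 2-fold or more higher in endothelium-like cells, where 1.30% of genes were. Without the 2 cells, 3 of the 5 were, with *Hba-a1* at 1.73 [1.14, 2.66] and *Hbb-bh1* at 1.66 [1.27, 2.19]. In mesenchyme-like cells, 6 of 7 were (all but *Hba-a1*), against 1.12% of genes. In neural crest-like cells, the smallest class with 30 and 31 cells, 1 of 5 was (*Hba-x*), against 4.24% of genes, and the median ratio of the 5 was 1.81. Without the neural crest-like cell over 0.2% globin, the ratio there was 1.16 [0.505, 2.71] for *Hba-a1* and 1.66 [1.33, 2.08] for the sum of the 7 genes. In neural ectoderm-like cells, 3 of 6 were (*Hba-x*, *Hbb-y* and *Hbb-bh1*), against 0.751% of genes, with a median ratio of 2.02. In optic vesicle-like cells, 5 of 7 were, against 0.800% of genes, with *Hba-x* and *Hba-a1* just below at 1.95 and 1.83. The members share reads within each pair and all rest on the same cells, so that these counts are not independent of each other. The minimum of 20 UMIs covers both libraries together, so that some calls rest on very few UMIs of the WT-labelled library. *Hbb-bs* had 1 and 20 UMIs in mesenchyme-like cells and 2 and 19 in optic vesicle-like cells. The other members had fewer than 20 UMIs in the class.

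**Figure D5:**
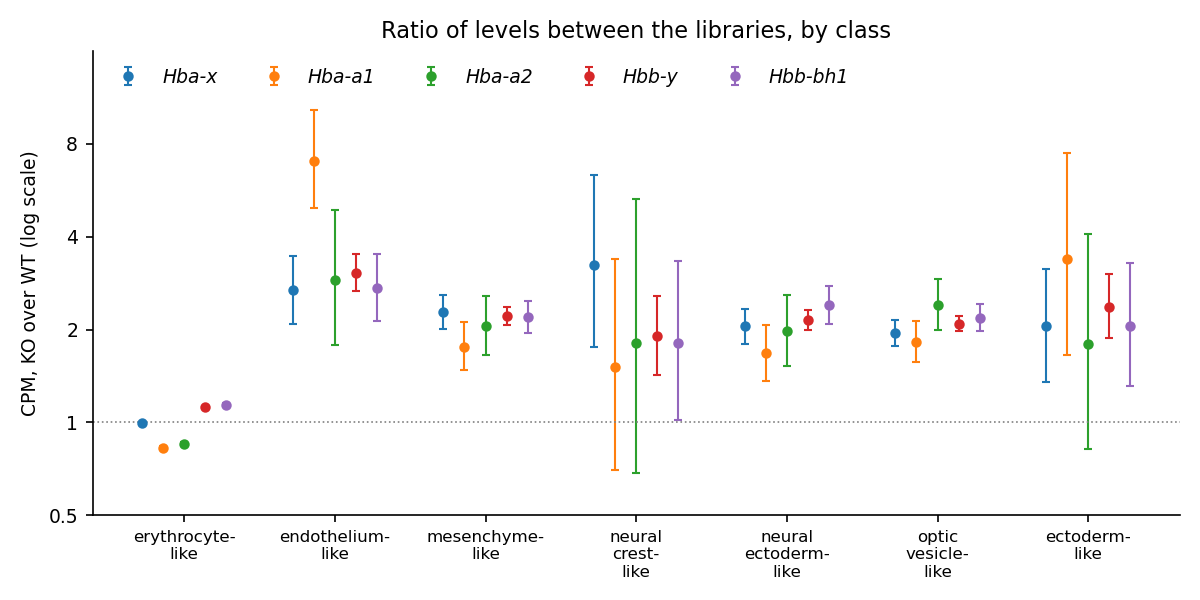
Ratio of the CPM of the KO-labelled library over the WT-labelled library (log scale) for the 5 abundant globin genes in each named class. Points are ratios of pooled levels, bars exact 95% intervals of counting, and the dotted line marks a ratio of 1. In erythrocyte-like cells the ratios lie between 0.829 and 1.14, in the other classes between 1.51 and 7.01. Both ends are *Hba-a1*, in neural crest-like cells (1.16 without 1 cell) and in endothelium-like cells (1.73 without 2 cells).

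In the ectoderm-like cells, which hold the lens placode, the study asked which genes differ without *Mab21l1*. It names *Hbb-y* among genes that were higher in null cells of both the lens placode and the surface ectoderm. From such genes, *Cldn3* among them, the study proposes that similar defects extended over the head surface ectoderm. It also names *Gnas*, *Srsf2* and *Ptms* as altered in both cell groups. The values here bear on *Hbb-y* and the other globins only. *Hbb-y* had 108 UMIs in the 58 cells of the WT-labelled library, or 94.7 CPM [77.7, 114], and 214 in the 48 cells of the KO-labelled library, or 225 CPM [196, 257], a ratio of 2.37 [1.88, 3.02]. A cell held 0 to 6 *Hbb-y* UMIs with a median of 2 in the WT-labelled library and 1 to 12 with a median of 4 in the KO-labelled library. Of the 5 members with at least 20 UMIs in the class, 4 were 2-fold or more higher (*Hba-x*, *Hba-a1*, *Hbb-y* and *Hbb-bh1*), where 1.94% of genes were. The other named classes outside the erythrocyte-like cells had *Hbb-y* ratios of 1.90 [1.42, 2.56] in neural crest-like, 2.09 [1.97, 2.21] in optic vesicle-like, 2.14 [1.99, 2.31] in neural ectoderm-like, 2.22 [2.07, 2.37] in mesenchyme-like and 3.05 [2.66, 3.52] in endothelium-like cells. The ratio in ectoderm-like cells lay inside this range, and its interval overlaps those of all 5. Without the 2 cells the endothelium-like ratio was 2.07 [1.79, 2.41], and the ectoderm-like ratio was then the highest of the 6, with an interval that still overlaps the other 5.

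Ordered by level, *Hbb-y* in the WT-labelled library was highest in neural crest-like cells at 143 CPM [111, 180], then in endothelium-like at 130 [115, 147], mesenchyme-like at 124 [117, 131], neural ectoderm-like at 117 [110, 124] and optic vesicle-like cells at 104 [99.5, 110], and lowest in ectoderm-like cells. Intervals of neighbours in this order overlap, except those of neural ectoderm-like and optic vesicle-like cells. In the KO-labelled library the order was endothelium-like at 398 CPM [373, 423], mesenchyme-like at 274 [265, 283], neural crest-like at 271 [229, 318], neural ectoderm-like at 251 [241, 261], ectoderm-like at 225 [196, 257] and optic vesicle-like cells at 218 [212, 225]. Endothelium-like cells stood apart from the next class in this order, but without the 2 cells they were at 270.0 CPM [250, 292], and the intervals of all neighbours overlap. Neural crest-like cells were at 230 CPM [191.5, 274.5] without their cell over 0.2% globin, below the neural ectoderm-like level. The level in ectoderm-like cells was thus below or within counting error of that in the other classes that are not erythroid. The source of the UMIs was not tested.

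The share of ectoderm-like cells with an *Hbb-y* UMI was 77.6% [64.7, 87.5] in the WT-labelled library and 100% [92.6, 100] in the KO-labelled library, at median depths of 18057 and 16930 UMIs. With each cell thinned to 10000 UMIs it was 63.0% of 54 cells and 91.1% of 45 cells. In neural ectoderm-like cells, at median depths of 19895 and 18507 UMIs, it was 86.5% [82.6, 89.8] and 97.8% [95.9, 98.9], and 67.3% and 92.1% after thinning. Re-clustered on their own, the ectoderm-like cells fell into 58 lens placode (LP)-like and 48 surface ectoderm (SE)-like cells, with 8 and 6 markers of their type. *Hbb-y* had 51 and 141 UMIs in LP-like cells, 93.1 and 218 CPM, a ratio of 2.34 [1.69, 3.30], and 57 and 73 UMIs in SE-like cells, 96.2 and 239 CPM, a ratio of 2.48 [1.73, 3.57]. The globins were left out of this split.

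In endothelium-like cells of the KO-labelled library, 2 cells, those left out above, stood out. They held 351 globin UMIs of 59888 and 458 of 41461, which is 0.586% and 1.10% of their UMIs, while the median cell of the class held 11. The first had 152 *Hbb-y*, 72 *Hba-x* and 44 *Hba-a1* UMIs. The second had 195 *Hba-a1* and 194 *Hbb-y* UMIs but 11 of *Hba-a2* and 3 of *Hba-x*, whereas *Hba-x* made up at least 34.8% of the alpha-like UMIs in every erythrocyte-like cell, and it had 6 UMIs of the 8 erythrocyte markers. Without these 2 cells the ratio of KO over WT in endothelium-like cells changed from 3.23 to 1.99 for the sum of the 7 genes and from 7.01 to 1.73 for *Hba-a1*. A further 2 cells of the KO-labelled library, in the neural crest-like class and in an unnamed cluster, had 50 and 49 globin UMIs, or 0.443% and 0.387%. The latter had 31 *Hbb-bh1* UMIs beside 4 of *Hbb-y*. No cell of the WT-labelled library outside the class passed 0.0983%.

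Other genes of red cells were also counted outside the class. *Alas2* had 23 UMIs there in the WT-labelled library and 64 in the KO-labelled library, a ratio of CPM of 2.21 [1.35, 3.72], while its ratio inside the class was 1.03. *Gata1* had 5 and 20 and *Epor* 11 and 31, with ratios of 3.17 [1.16, 10.8] and 2.23 [1.09, 4.93]. *Klf1* did not follow, with 49 and 61 UMIs, a ratio of 0.987 [0.667, 1.47]. *Slc4a1*, *Rhag* and *Hemgn* had 10 and 17, 2 and 7, and 3 and 8 UMIs, with intervals that include 1. All 8 erythrocyte markers together had 112 and 239 UMIs outside, a ratio of 1.69 [1.35, 2.14], against 2.19 [2.14, 2.25] for the 7 globins. Platelet *Pf4* and *Gp9* were also higher outside in the KO-labelled library, at 0.0501 and 3.66 CPM and at 0 and 0.318 CPM. *Pf4* had no UMI in the erythrocyte-like cells of either library, and over how many cells its UMIs outside were spread was not examined. *Itga2b*, *Itgb3* and *Gp1bb* differed less there, and *Ppbp* had no UMI. Relative to its level inside the class, *Alas2* outside stood at 0.0549% in the WT-labelled library and 0.118% in the KO-labelled library, and *Hbb-y* at 0.0866% and 0.169%. The other markers spread more widely, from *Hemgn* at 0.0291% and 0.0663% to *Epor* at 0.244% and 0.529% and *Klf1* at 0.470% and 0.450%. There was thus no common share of the inside level.

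The globin UMIs held in the erythrocyte-like cells were 1.08% of all kept UMIs in the WT-labelled library and 1.24% in the KO-labelled library, a ratio of 1.15, against 2.19 for the globin UMIs per UMI in the other classes. The share of erythrocyte-like cells among the kept cells was about equal. How far the red cells lost before capture, the handling of each embryo or the genotype enter the difference was not tested, and with 1 library each they cannot be told apart.

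Likeness to *Hbb-y* was taken over the 8 classes of the 2 libraries, that is 16 points that share libraries and depth. It covered 2347 genes that are not globins and had at least 100 UMIs in erythrocyte-like cells. *Alas2* was most like *Hbb-y*, with a Pearson r of log2(CPM + 1) of 0.994, and *6030468B19Rik* had an r of 0.988. The genes were picked by their UMIs in the class where *Hbb-y* is high, and *Alas2* is among the 8 markers that named it. A high r is therefore no independent result. The other members had r between 0.986 for *Hbb-bt* and 0.999 for *Hbb-bh1*. *Alas2* was at 1065 CPM in erythrocyte-like cells and at most 2.002 CPM in any other class of either library.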

How the data were processed

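Cells of the ocular area of 1 wild-type and 1 *Mab21l1*-null embryo were sequenced with the 10x Chromium 3′ kit. Per the labels and the study's methods, Cell Ranger and mm10 (GRCm38) were used, and the aggr step that merges libraries may have thinned reads to equal depth. The deposited values are whole-number UMI counts without scaling. How reads matching both copies of a gene pair were counted is not given in the sources used here.

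Cells with 1500 to 8000 genes and at most 5% mitochondrial UMIs and genes in at least 3 cells were kept. Clusters were made over all cells in Seurat 5.3.0 (R 4.3.3) from 1548 variable genes, globins left out, 40 principal components and a resolution of 0.6, after cell cycle regression. A cluster of at least 30 cells was named "X-like" after the type with at least 3 markers 2-fold or more above the other cells, 3 of 17 clusters stayed unnamed, and 1 of 24 macrophage-like cells was too small for use. Ectoderm-like cells were re-clustered on 10 components, again without globins. No doublet caller was run. Outside the erythrocyte-like class, doublets with red cells were treated by leaving out cells over 1% globin as an alternative. Doublets within that class were not treated.

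UMIs were summed per class and library and given per 1000000 (CPM) or per 10000 UMIs. Exact intervals were computed in Python 3.11.15 with numpy 2.4.6, scipy 1.17.1 and pandas 2.3.3, and figures with matplotlib 3.10.9. The interval code was tested on simulated counts. Named are the 7 members, the other globins of the table, the highest gene of each erythroid list with any 2-fold apart, the 5 genes most like *Hbb-y* among those with at least 100 UMIs in erythrocyte-like cells, and *Mab21l1*; other genes of the lists and markers were named after their values were seen. Some genes that this rule names are not reported here. Gene positions come from GENCODE M21. The members and lists were chosen with earlier results of these data known. Medians over cells, level per UMI that is not globin, filters, resolutions, thinning to 10000 UMIs and other minimums were tried as alternatives, together with endothelium-like cells without those over 0.5% globin, chosen after seeing the data. Values without cells over 0.2% globin were also computed.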

Additional observations from a re-analysis of the deposited data

Results flagged for a closer look

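Among the barcodes that failed the limits on cells, 3 of the WT-labelled and 2 of the KO-labelled library had over 10% globin UMIs, all with over 5% mitochondrial UMIs, so that signal lay in data the comparisons do not use. Their globin UMIs had an alpha-like to beta-like ratio of 0.553 [0.532, 0.575] in the WT-labelled and 0.345 [0.329, 0.361] in the KO-labelled library. In the other classes this ratio was 0.427 and 0.404. *Hbb-y* made up 41.7% [40.8, 42.6] and 50.8% [49.8, 51.9] of the globin UMIs of these barcodes. It made up 40.2% and 43.3% in the erythrocyte-like cells, and 53.2% in the other classes of both libraries.

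*Hba-a1* and *Hba-a2* had ratios of KO over WT of 0.829 and 0.849 in erythrocyte-like cells, but of 2.04 and 2.21 in the other classes, in the opposite direction. The sum of the 7 globins had a ratio of 2.19 in the other classes, so that the higher level there was not particular to these 2 genes. Without 2 endothelium-like cells rich in globin, *Hba-a1* was at 1.77 in the other classes. With 1 library per genotype this difference between the classes was not tested.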

How the results depend on the processing

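Of the alternative values, 36 moved, most of them beyond the counting interval of the main value, and 146 did not. The *Hba-x* ratio of KO over WT in erythrocyte-like cells, 0.992 with an interval that includes 1, lay above 1 under 2 alternatives, and no other ratio changed side. The causes were not tested. No paired analysis was possible because each genotype is 1 library. Counting error is the only error these data give.

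Without a mitochondrial limit, the alpha-like to beta-like ratio was 0.729 (WT) and 0.586 (KO), the globin share 32.8% (WT) and the *Hbb-y* ratio of KO over WT 1.13. As medians over cells, the *Hba-x* share was 46.5% and 51.5%, the *Hbb-bh1* share 29.98% and 30.4%, the adult beta share 0.738% and 0.987%, the alpha-like to beta-like ratio 0.750 and 0.578 and the globin share 32.0% and 34.0%, with ratios of KO over WT of 1.08 for *Hba-x*, 0.794 for *Hba-a2*, 1.21 for *Hbb-y*, 1.21 for *Hbb-bh1*, 1.42 for *Hbb-bs* and 1.503 for *Hbb-bt*, which is then under 2-fold. Relative to UMIs that are not globin, the globin sum was 49.0% and 51.9%, with ratios of 1.01 for *Hba-x*, 0.845 for *Hba-a1*, 0.865 for *Hba-a2*, 1.14 for *Hbb-y* and 1.16 for *Hbb-bh1*.

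Outside the erythrocyte-like cells, the KO-labelled level was 4.63 per 10000 UMIs without cells over 1% globin, the ratio 1.92 as UMIs per cell, and the *Hbb-bh1* share 22.1% and 23.3% after thinning. Without endothelium-like cells over 0.5% globin, an alternative chosen after seeing the data, the ratio there was 1.73 for *Hba-a1*, 2.07 for *Hbb-y* and 1.99 for the 7 genes, and the level of the KO-labelled library 4.88 per 10000 UMIs. Then 3 of 5 members, in place of 5, were 2-fold or more higher. Of all genes tested in this class 1.30% were, with the left-out cells included.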
